A study of Mus musculus with 4 samples.

Results

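Piezo1 and 9 further genes that encode stretch- or volume-gated channels were followed in mouse osteoclast precursors with and without Piezo1. The 10 genes were Piezo1, Trpv2, Trpm7, Trpm4, Tmem63a, Tmem63b, Lrrc8a, Panx1, Pkd1 and Pkd2, chosen by name, and all 10 had a row among the 12799 genes of the deposited table. Poly(A) RNA came from bone marrow-derived monocytes of 12-week-old female mice. Marrow was cultured for 2 days, and the non-adherent cells received 30 ng/mL of M-CSF, which keeps monocytes alive and dividing. For the 3 days before harvest RANKL, the cytokine that starts osteoclast formation, was added to the M-CSF at 50 ng/mL. Knockout cells had the genotype Csf1r-iCre;Piezo1fl/fl, in which the Csf1r promoter drives a Cre recombinase in cells of the monocyte lineage (n = 2 libraries). Control cells, labelled wild type, had floxed Piezo1 alleles (Piezo1fl/fl, also written Piezo1f/f) and no Cre (n = 2 libraries). Effects of the Cre transgene and of Piezo1 loss therefore cannot be told apart. The labels call the libraries biological replicates and do not say how many animals each came from.

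Mechanosensitive channels turn membrane tension or cell swelling into ion flow. PIEZO1 is a very large trimeric cation channel whose curved blades flatten when the membrane is stretched, letting calcium enter. Of the other channels on the list, the TMEM63 proteins are gated by tension too, and several others respond to it less directly. TRP channels carry calcium or magnesium and are gated by several stimuli, TMEM63 proteins are relatives of the plant osmosensors called OSCA, LRRC8A is the subunit that every volume-regulated anion channel needs, pannexin-1 releases ATP, and the polycystins form a receptor-channel pair best known from primary cilia. Bone cells live under load, and the comparison asks which of these channels osteoclast precursors transcribe and whether any of them differs when Piezo1 is lost.

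Levels are in CPM, read counts over a library size that the authors had scaled, and 1 read was worth 0.0544 to 0.0700 CPM in libraries of 14122118 to 18897927 recovered reads. The cultures carried the transcripts of their label. All 12 osteoclast markers and all 10 macrophage markers were measured in every library, with summed levels of 61835 and 76515 CPM in knockouts and 64013 and 60885 CPM in controls for the osteoclast list. Stromal, fibroblast and osteoblast markers were also present, with 18 of 19 measured and none of the 18 at 0. They summed to 1580 and 1457 CPM in knockouts, against 2202 and 2764 CPM in controls, and without the collagen I genes Col1a1 and Col1a2 the other 16 summed to 688 and 641 CPM in knockouts, against 962 and 1201 CPM in controls. Of the 18, 15 had a negative and 3 a positive log2 fold change (median −0.54). Limma and edgeR called 0 of the 18, 9 had an unadjusted p under 0.05 (4.90% of all genes tested had one), and DESeq2 called 8 of the 16 to which it gave an adjusted p (0.605% of all such genes). In bulk RNA, a different number of cells of a type and a different amount of RNA per cell cannot be told apart. Neutrophil markers summed to 36.8 and 38.0 CPM in knockouts and 32.1 and 59.8 CPM in controls, and the 4 measured endothelial markers to at most 11.5 CPM in any library.

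The promoters of Piezo1, Trpv2 and Trpm7 are shown because these 3 genes had the highest levels per length in control cells. Each is the 250 bases before the RefSeq start site on GRCm38.p6, written 5′ to 3′ on the gene's strand. Capitals mark matches, on either strand, to TATAAA (the TATA box), GAGGAA (the core bound by PU.1, the factor of the myeloid lineage) or TGANTCA (the AP-1 site).
Piezo1: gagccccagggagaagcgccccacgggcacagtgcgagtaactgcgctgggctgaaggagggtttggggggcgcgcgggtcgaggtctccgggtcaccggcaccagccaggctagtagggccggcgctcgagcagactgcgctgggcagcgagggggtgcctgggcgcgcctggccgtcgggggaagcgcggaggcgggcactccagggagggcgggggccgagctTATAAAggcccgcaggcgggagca
Trpv2: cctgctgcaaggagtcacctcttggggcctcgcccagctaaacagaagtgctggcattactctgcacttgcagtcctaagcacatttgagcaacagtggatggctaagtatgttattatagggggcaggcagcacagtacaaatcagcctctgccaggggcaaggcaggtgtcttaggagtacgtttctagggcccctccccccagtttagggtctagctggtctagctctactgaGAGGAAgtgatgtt
Trpm7: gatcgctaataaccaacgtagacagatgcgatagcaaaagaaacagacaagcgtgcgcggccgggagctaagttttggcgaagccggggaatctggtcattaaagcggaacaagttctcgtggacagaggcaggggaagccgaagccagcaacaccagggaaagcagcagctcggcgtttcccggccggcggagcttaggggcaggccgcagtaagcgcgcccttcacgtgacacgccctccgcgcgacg
These windows lie at chr8:122551330-122551579 (minus strand), chr11:62574236-62574485 (plus strand; the table holds 3 start sites for Trpv2, and the most upstream is shown) and chr2:126876262-126876511 (minus strand). In the GENCODE M21 annotation the Trpm7 gene starts further downstream, at 126876230. The bases after its RefSeq start were not found near the start of any annotated transcript, so the Trpm7 window is uncertain. The Piezo1 window held 1 TATAAA, which 12.4% of 32851 promoter windows of the same length hold. The Trpv2 window held 1 GAGGAA, present in 23.3% of all windows, and the Trpm7 window held none of the 3 motifs. TGANTCA, present in 6.75% of all windows, was in none of the 3. CpG dinucleotides numbered 26 in the Piezo1 window, 2 in the Trpv2 window and 26 in the Trpm7 window, against a median of 6 over all windows.

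Piezo1 fell in the knockout cells and kept a measurable remainder. It had 61.0 and 56.2 CPM in knockouts, against 430 and 384 CPM in controls, and the groups did not overlap. On the log2(CPM + 0.5) scale the difference was −2.79 (SE 0.10), with a 95% confidence interval of −3.02 to −2.55 and a Benjamini-Hochberg adjusted p of 8.23e-05 in limma's test over all 11781 genes. Of all genes tested, 0.119% were called lower, 0.0424% were called higher and 0.161% were called in either direction. Piezo1 (ENSMUSG00000014444.17) lies on the minus strand of chromosome 8 from 122481698 to 122551329 on GRCm38 and has 9 annotated transcripts.

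The remaining Piezo1 signal was alike in the knockout libraries. It rested on 924 and 1033 reads, against 6622 and 5493 reads in controls. Relative to the control mean it stood at 14.97% in knockout 1 and 13.8% in knockout 2. The exact Poisson 95% intervals of the knockout libraries, 57.1 to 65.0 CPM and 52.8 to 59.7 CPM, overlapped, and the difference itself was not tested. These intervals cover counting error only. Csf1r, whose promoter drives the Cre, had 1310 and 1570 CPM in knockouts and 1427 and 1201 CPM in controls. Tdtomato, a row named for a red fluorescent reporter on which the labels are silent, had 270 and 870 CPM in knockouts and 0.52 and 6.02 CPM in controls, so it differed between the knockout libraries far more than Piezo1 did. Counts are summed over the gene, and the exons between the loxP sites are those of a floxed allele not described in the labels. Cells that escaped deletion, cells outside the monocyte lineage and RNA from the undeleted exons therefore cannot be told apart in the remainder. Stromal markers summed to 1580 and 1457 CPM in the knockouts, and the Piezo1 level of such cells was not tested.

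A further limit on the Piezo1 value comes from its neighbour on the opposite strand. Ctu2, which encodes a tRNA-thiolating enzyme, shares 2441 bases with Piezo1 exons in the GENCODE M21 annotation, 24.6% of the 9935 exonic bases of Piezo1. For the counting, use of strand is one setting not given in the sources used here. Reads of the shared stretch may thus have come from either gene. Ctu2 itself had 8.25 and 7.18 CPM in knockouts and 6.36 and 6.58 CPM in controls (log2 fold change 0.23, limma adjusted p = 0.99975).

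**Figure D1:**
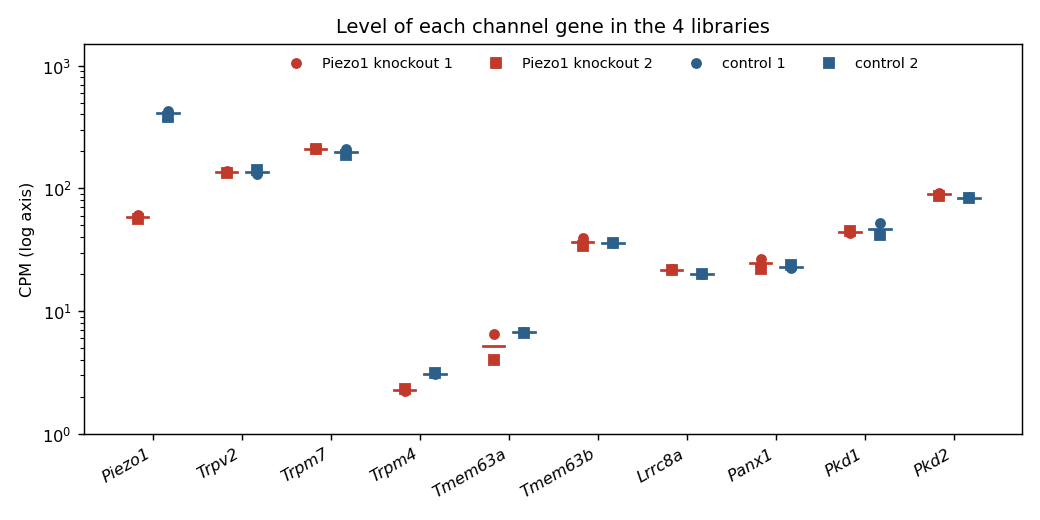
Level of each of the 10 channel genes in CPM on a log axis, 1 point per library (circle for library 1, square for library 2) and a bar for each group's mean, Piezo1 knockout in red left of control in blue. Piezo1 averaged 58.6 CPM in knockouts and 407 CPM in controls, and the groups of the other 9 genes lie close together.

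None of the other 9 channel genes passed the test. With limma, edgeR and DESeq2, which called 0.161%, 0.161% and 0.605% of all genes they tested, 0 of 9 were called. In limma 0 had an unadjusted p under 0.05, and each had a limma adjusted p of 0.99975. Their log2 fold changes ran from −0.37 to 0.12 with a median of 0.033, against a median of 0.0016 over all genes tested. Knockout and control libraries did not overlap for 5 of the 9, of which 3 were higher and 2 lower, and 31.9% of all genes tested had groups that did not overlap. The 9 genes summed to 579 and 560 CPM in knockouts and 564 and 544 CPM in controls.

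**Figure D2:**
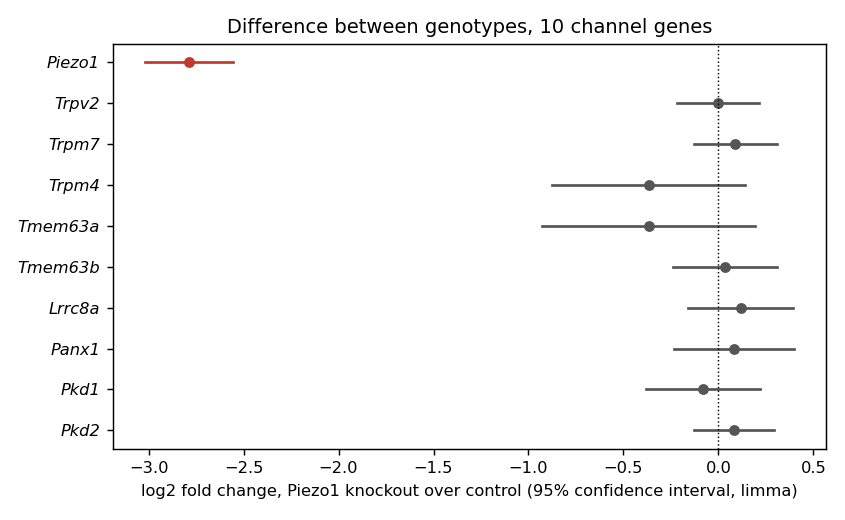
Log2 fold change of each channel gene, Piezo1 knockout over control, as a point with its 95% confidence interval from limma, red where the adjusted p was under 0.05. The Piezo1 interval runs from −3.02 to −2.55, and each of the other 9 intervals includes 0.

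The TRP cation channels on the list include the gene with the fewest reads, Trpm4. Trpm7, a channel for magnesium and calcium that carries its own kinase domain, had 208 and 211 CPM in knockouts and 208 and 187 CPM in controls. Knockout 1 and control 1 nearly coincided, and control 2 was the low library. The log2 fold change of 0.09 (SE 0.09) had a 95% confidence interval of −0.13 to 0.31. Trpv2, a calcium-permeable channel that macrophages use in phagocytosis, had 140 and 133 CPM in knockouts and 131 and 142 CPM in controls. Its groups overlapped, and the log2 fold change of −0.0035 had an interval of −0.22 to 0.21, which is 0.859- to 1.16-fold. Trpm4, a channel opened by intracellular calcium that passes sodium and so depolarises the cell, had 2.24 and 2.34 CPM in knockouts and 3.05 and 3.15 CPM in controls. The knockouts were the low libraries with no overlap, on at most 47 reads in each of the 4 libraries, and the log2 fold change was −0.37 (SE 0.22, interval −0.88 to 0.14). On GRCm38 these genes lie as follows, with Trpm7 on chromosome 2 from 126791565 to 126876230 (minus strand), Trpv2 on chromosome 11 from 62574486 to 62600515 (plus strand) and Trpm4 on chromosome 7 from 45302632 to 45333780 (minus strand).

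Of the TMEM63 pair, which encode tension-gated cation channels, Tmem63b was the more abundant per length. Tmem63b had 39.6 and 34.0 CPM in knockouts and 36.1 and 35.6 CPM in controls. The knockouts lay on either side of the controls, with a log2 fold change of 0.03 (interval −0.24 to 0.31). Tmem63a had 6.47 and 3.97 CPM in knockouts and 6.82 and 6.58 CPM in controls. Knockout 2 was the low library and knockout 1 was near the controls. The log2 fold change was −0.37 (SE 0.24, interval −0.93 to 0.19), and it was −0.05 without knockout 2 and −0.69 without knockout 1. On the same build lie Tmem63b on chromosome 17 from 45660171 to 45686905 (minus strand) and Tmem63a on chromosome 1 from 180942344 to 180975112 (plus strand).

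The genes for anion and ATP pathways did not pass the test either. Lrrc8a had 21.9 and 21.6 CPM in knockouts and 20.00 and 20.02 CPM in controls. The libraries within each genotype nearly coincided, the knockouts were higher, and the log2 fold change was 0.12 (SE 0.12, interval −0.16 to 0.39). In the annotation, 66.2% of its exonic bases are shared with the same-strand gene Gm28035, so its level is uncertain. Panx1, whose channel opens fully once caspases remove its tail, had 26.7 and 22.2 CPM in knockouts and 22.3 and 23.8 CPM in controls. Its groups overlapped, and the log2 fold change was 0.08 (interval −0.23 to 0.40). The annotation places Lrrc8a on chromosome 2 from 30237715 to 30263790 (plus strand) and Panx1 on chromosome 9 from 15002128 to 15045478 (minus strand).

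Both polycystin genes were expressed. Pkd2, which encodes the channel-forming partner and is itself a TRP protein, had 91.1 and 87.2 CPM in knockouts and 84.8 and 83.7 CPM in controls. The knockouts were the higher libraries, without overlap, and the log2 fold change was 0.08 (SE 0.09, interval −0.13 to 0.29). Pkd1, which encodes the large receptor-like partner, had 43.5 and 44.7 CPM in knockouts and 52.2 and 41.6 CPM in controls. Both knockouts lay between the controls, with a log2 fold change of −0.08 (interval −0.38 to 0.22). Pkd1 shares 3.98% of its exonic bases with Tsc2 on the opposite strand. The annotated spans put Pkd2 on chromosome 5 from 104459450 to 104505819 (plus strand) and Pkd1 on chromosome 17 from 24549834 to 24596508 (plus strand).

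The precision sets what these values can show. The lowest confidence limit among the 9 genes was that of Tmem63a, 1.90-fold lower, and the highest were those of Panx1, 1.32-fold higher, and Lrrc8a, 1.31-fold higher. An interval gives the differences that fit the data of 2 libraries per genotype, and it is not the limit for a call. The gene Tpcn2, described below, had a log2 interval of −0.75 to −0.16 but a limma adjusted p of 0.594. An exact 2-sided permutation test of a single gene cannot go below p = 0.333 in this design, so the adjusted p rests on the spread that limma shares between genes.

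Compared per length, as CPM per kilobase of exon, Piezo1 ranked first of the 10 genes in both controls and at place 5 in both knockouts. In knockouts the order was Trpv2 (30.4 ± 1.13 CPM per kb), Trpm7 (18.5 ± 0.19), Pkd2 (8.77 ± 0.27), Tmem63b (7.22 ± 0.78), Piezo1 (5.89 ± 0.34), Lrrc8a (5.05 ± 0.05), Panx1 (4.06 ± 0.53), Pkd1 (2.53 ± 0.05), Tmem63a (1.16 ± 0.39) and Trpm4 (0.21 ± 0.01; SD, n = 2 each). In controls Piezo1 led at 41.0 ± 3.24 CPM per kb, ahead of Trpv2 at 30.5 ± 1.76 and Trpm7 at 17.4 ± 1.29 CPM per kb, and Trpm4 was last at 0.29 ± 0.01 CPM per kb (SD, n = 2 each). Beyond the move of Piezo1, the sequence of the other 9 genes was the same in all 4 libraries. No neighbours in either order overlapped between libraries of a group, though Tmem63b in knockout 2 (6.66 CPM per kb) came close to Piezo1 in knockout 1 (6.14 CPM per kb). The ranks were the same when the longest transcript replaced the exon union as the length. The place of Lrrc8a is uncertain because of its overlap with Gm28035.

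**Figure D3:**
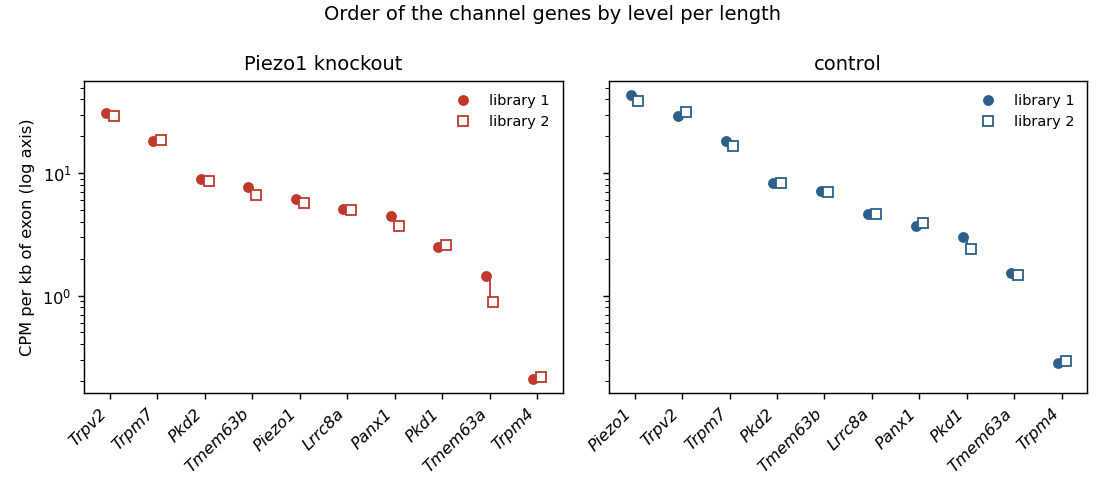
Level per length of the 10 channel genes, in CPM per kilobase of exon on a log axis, ordered from high to low in Piezo1 knockouts (left) and controls (right), with a filled circle for library 1 and an open square for library 2. Piezo1 is at place 5 of 10 in the knockouts and first in the controls.

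Piezo1 made up 7.13% and 6.94% of the summed per-length level of the 10 genes in knockouts, against 36.3% and 33.7% in controls. The sum of the other 9 was 79.9 and 75.8 CPM per kb in knockouts and 76.1 and 76.2 CPM per kb in controls. The knockouts lay on either side of the controls. Against all tested genes with a known length, Piezo1 stood at percentile 52.2 in knockouts and 90.8 in controls, and Trpv2 at 87.2 and 87.3.

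The 5 genes whose profile over the 4 libraries was nearest to that of Piezo1 were Clba1, Celf3, Inhba, Has2 and Pappa. Nearness was the root-mean-square distance between library values of log2(CPM + 0.5) after subtracting each gene's mean, and it was 0.19, 0.48, 0.64, 0.67 and 0.69. They were picked for this pattern and so are described only. The stromal markers summed lower in both knockouts than in both controls, and their part in these 5 profiles was not tested. Clba1, for a clathrin-binding protein, had 3.83 and 4.35 CPM in knockouts and 39.0 and 38.6 CPM in controls. Celf3, for an RNA-binding protein, had 0.73 and 0.43 CPM in knockouts and 3.25 and 3.64 CPM in controls. Has2, which encodes a hyaluronan synthase, had 3.30 and 1.96 CPM in knockouts and 8.83 and 7.56 CPM in controls. Inhba, for the activin A subunit, had 15.38 and 15.44 CPM in knockouts and 39.8 and 56.4 CPM in controls, and Pappa, for a protease that cuts insulin-like growth factor binding proteins, had 7.19 and 7.23 CPM in knockouts and 19.2 and 21.4 CPM in controls.

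Outside the list, 7 groups of related genes held 131 genes, each counted once, of which 84 had a row in the table and 72 were tested. With limma and edgeR 0 of the 72 were called, and with DESeq2 0 of the 60 to which it gave an adjusted p. The other 12, Trpv4, Panx3, Cacna1c and Nt5e among them, got none. Limma, edgeR and DESeq2 called 0.161%, 0.161% and 0.605% of all genes they tested. Counts of 0 here and in each list below are thus near that background. An unadjusted p under 0.05 was reached by 4 of the 72 (5.56%), against 4.90% of all genes tested. Knockouts and controls did not overlap for 21 of the 72 (29.2%, against 31.9% of all genes), and the median log2 fold change was 0.03.

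Of 24 other members of the same channel families, 11 had a row, 8 were tested and none was called (0 with an unadjusted p under 0.05, median log2 fold change 0.08). Of the LRRC8 partners, which assemble with LRRC8A into volume-regulated anion channels and set what they conduct, Lrrc8b, Lrrc8c and Lrrc8d had a row. Lrrc8d had 59.9 and 61.3 CPM in knockouts and 58.6 and 57.5 CPM in controls, and Lrrc8b had 20.8 and 26.9 CPM in knockouts and 23.5 and 18.8 CPM in controls. Lrrc8c had 3.63 and 3.04 CPM in knockouts and 5.72 and 4.27 CPM in controls, with the knockouts lower and no overlap (log2 fold change −0.51, limma adjusted p = 0.99975). Per length, Lrrc8d reached 4.82 ± 0.08 CPM per kb in knockouts and 4.62 ± 0.07 in controls. Lrrc8a was close at 5.05 ± 0.05 and 4.65 ± 0.00 CPM per kb (SD, n = 2 each), though its overlap with Gm28035 leaves its level uncertain. Panx3, a pannexin of skeletal cells, had 1.25 and 1.14 CPM in knockouts and 0.45 and 0.91 CPM in controls on at most 21 reads. Trpv4, a calcium channel opened by swelling and warmth, had 1.12 and 1.03 CPM in knockouts and 1.69 and 1.40 CPM in controls on at most 26 reads. It was named after its values were seen.

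Among 39 other channels linked to stretch, pressure or swelling, 18 had a row and 13 were tested. The list had 0 called genes, 1 with an unadjusted p under 0.05, and a median log2 fold change of 0.0054. Ano6, a calcium-activated lipid scramblase and ion channel, stood at 141 and 145 CPM in knockouts and 145 and 131 CPM in controls. Tmem87a had 86.6 and 91.1 CPM in knockouts and 90.3 and 77.3 CPM in controls. The gene with an unadjusted p under 0.05 was Cacna1c, for the pore of the L-type voltage-gated calcium channel, at 1.98 and 1.90 CPM in knockouts and 3.31 and 3.08 CPM in controls (log2 fold change −0.60, limma adjusted p = 0.950). Tmem120a had 27.5 and 25.01 CPM in knockouts and 29.9 and 33.9 CPM in controls (log2 fold change −0.28, limma adjusted p = 0.99975). The stromal markers, whose summed levels were lower in both knockouts than in both controls, lie in the same libraries, and their part in the values of Cacna1c and Tmem120a was not tested.

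**Figure D4:**
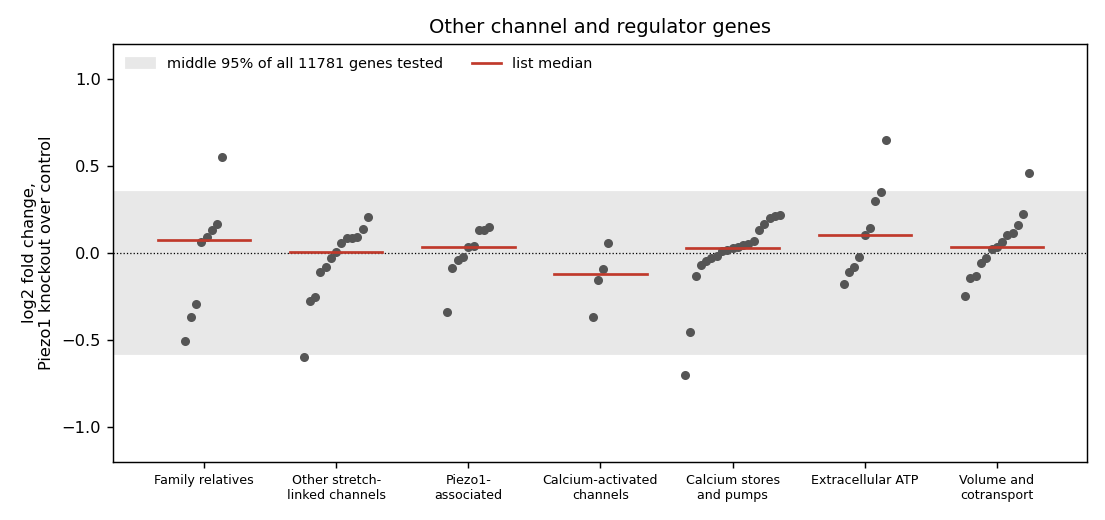
Log2 fold change, Piezo1 knockout over control, of the tested genes in 7 lists of related channels and regulators, 1 point per gene, with the list median as a red line and the middle 95% of all 11781 tested genes, −0.58 to 0.35, in grey. List medians lie between −0.12 and 0.10.

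Genes for proteins reported to bind or tune PIEZO1 were measured for 9 of 13 and all 9 were tested. None was called (0 of 9) or had an unadjusted p under 0.05 (0 of 9). The median log2 fold change was 0.03. Mdfic, which encodes an auxiliary subunit of PIEZO channels, had 416 and 450 CPM in knockouts and 422 and 425 CPM in controls. Flna, for the actin cross-linker filamin A, had 966 and 765 CPM in knockouts and 891 and 860 CPM in controls. Cd44, a receptor for hyaluronan, had 563 and 570 CPM in knockouts and 610 and 555 CPM in controls. Stom, for the membrane protein stomatin, had 45.9 and 47.3 CPM in knockouts and 40.8 and 43.1 CPM in controls, and Cdh2, for N-cadherin, had 13.1 and 10.00 CPM in knockouts and 13.6 and 15.8 CPM in controls. Mdfic was named after its values were seen.

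Among the genes listed for calcium routes other than PIEZO1, those of stores and pumps were measured nearly in full. Of 20 genes for store-operated entry, store release and pumps, 19 were tested, 0 were called, 2 had an unadjusted p under 0.05 and the median log2 fold change was 0.03. Those 2 encode channels of endosomes and lysosomes. Tpcn2 had 23.3 and 19.95 CPM in knockouts and 29.6 and 29.9 CPM in controls (log2 fold change −0.46, interval −0.75 to −0.16, limma adjusted p = 0.594). Mcoln3 had 2.77 and 2.07 CPM in knockouts and 4.22 and 4.20 CPM in controls (log2 fold change −0.70, limma adjusted p = 0.805). Their relatives Tpcn1 and Mcoln1, named after their values were seen, had log2 fold changes of 0.01 and 0.04. Atp2a2, which loads the endoplasmic reticulum, had 414 and 381 CPM in knockouts and 377 and 350 CPM in controls, and Atp2b1, which exports calcium across the plasma membrane, had 377 and 322 CPM in knockouts and 352 and 340 CPM in controls. Of 12 calcium-activated channel genes, Trpm4 among them, 4 were tested and 0 called (0 at an unadjusted p under 0.05, median −0.12). Kcnn4, a potassium channel of macrophages, had 46.2 and 33.1 CPM in knockouts and 45.9 and 41.4 CPM in controls, and Ano10, an anoctamin, had 49.2 and 55.7 CPM in knockouts and 56.5 and 55.4 CPM in controls.

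ATP that leaves through pannexin-1 is read by purinergic receptors and broken down at the cell surface. Of 15 such genes 9 were tested and 0 called. An unadjusted p under 0.05 was reached by 0 of them, and the median log2 fold change was 0.10. P2rx5 and P2rx4 encode ATP-gated channels. P2rx5 had 31.5 and 34.9 CPM in knockouts and 33.3 and 28.6 CPM in controls, and P2rx4 had 30.1 and 19.7 CPM in knockouts and 26.8 and 28.5 CPM in controls. The ecto-enzyme gene Entpd1 had 9.50 and 7.50 CPM in knockouts and 7.27 and 6.30 CPM in controls, and Nt5e had 2.51 and 1.196 CPM in knockouts and 0.97 and 0.91 CPM in controls, each with the knockouts higher and a limma adjusted p of 0.99975.

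Transporters and kinases that restore cell volume were measured for 14 of 14 genes and tested for 13. With 0 called, 1 had an unadjusted p under 0.05, and the median log2 fold change was 0.03. That gene was Slc5a3, for the carrier of the osmolyte myo-inositol, at 57.3 and 64.6 CPM in knockouts and 49.9 and 39.0 CPM in controls (log2 fold change 0.46, interval 0.13 to 0.78, limma adjusted p = 0.744). Slc6a6, for the carrier of the osmolyte taurine, had 940 and 1120 CPM in knockouts and 1027 and 892 CPM in controls. Wnk1, a kinase that senses chloride and switches cotransport, had 396 and 394 CPM in knockouts and 434 and 390 CPM in controls, and Slc12a7, a potassium-chloride cotransporter, had 239 and 295 CPM in knockouts and 244 and 212 CPM in controls.

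The genes around Piezo1 on chromosome 8 did not pass the test. Of 16 tested genes within 500 kb, 0 were called with limma or edgeR, and with DESeq2 0 of the 15 to which it gave an adjusted p (all but Gm20735). These tools called 0.161%, 0.161% and 0.605% of all genes, so counts of 0 are near the background. An unadjusted p under 0.05 was reached by 1 of 16, against 4.90% of all genes. Their log2 fold changes ran from −0.28 to 0.23. The nearest were Ctu2, which overlaps Piezo1, Rnf166 at 5.63 kb and Cdt1 at 16.7 kb. Rnf166, for a ubiquitin ligase, had a log2 fold change of −0.03, and Cdt1, which licenses replication origins, had one of 0.17, each with a limma adjusted p of 0.99975. The gene with an unadjusted p under 0.05 was Zfp469, a zinc-finger gene at 209 kb (log2 fold change −0.28, limma adjusted p = 0.987).

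**Figure D5:**
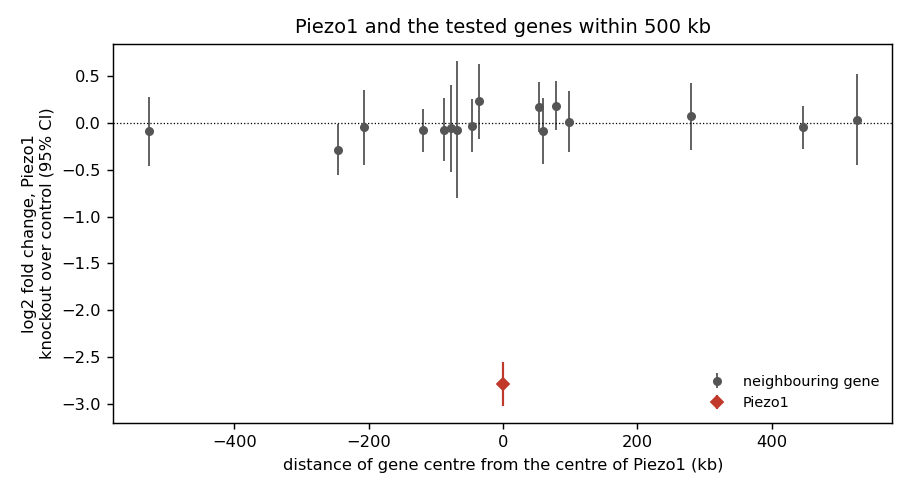
Log2 fold change, Piezo1 knockout over control, with its 95% confidence interval from limma, against the distance in kb of each gene's centre from the centre of Piezo1, for Piezo1 (red diamond) and 16 tested genes whose start or end lies within 500 kb (grey circles). The 16 neighbours lie between −0.28 and 0.23, and Piezo1 lies at −2.79.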

How the data were processed

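The authors deposited 1 table with a normalised signal per gene and library. Per the submitters' processing notes, the mouse build was mm10 (GRCm38) and the tools were edgeR, Subread's featureCounts and STAR, without versions. They leave the annotation release, strand setting and low-gene filter as steps not given in the sources used here. All values (100%) were whole multiples of the value of 1 read in their library to within 0.001 reads, which recovered whole reads, and CPM with TMM scaling from those reads matched the deposited signal to within 4.9e-11 CPM. Columns summed to 988521 to 1027290. Every pair of libraries differed beyond sampling noise (chi-square per degree of freedom 11.2 to 22.5), so all 4 were kept as separate replicates. The largest value, 22.5, was between the 2 knockouts, against 12.0 to 21.1 between a knockout and a control and 11.2 between the controls. Pearson correlations on the log2 scale were 0.9905 between the knockouts, 0.9897 to 0.9900 between a knockout and a control and 0.9918 between the controls.

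limma 3.58.1 (R 4.3.3) with an intensity trend was fitted to log2(CPM + 0.5) for the 11781 genes that reached 1 CPM in 2 or more libraries. Genotype was the one term, and tests were 2-sided, Benjamini-Hochberg adjusted over all genes, and called at an adjusted p under 0.05. A fold change on this scale understates that of low genes. All 10 channel genes passed the filter. Alternatives were 2 further pseudocounts, a stricter filter and none, unscaled and median-of-ratios library sizes, limma without trend and robust, a replicate block, each library left out, edgeR 4.0.16 and DESeq2 1.42.0 on the recovered reads, which called 19 and 63 genes. The fits were tested on simulated counts. Lengths and positions came from GENCODE M21 on GRCm38, matched for 12686 of 12799 symbols, and promoters from RefSeq on GRCm38.p6, found for 9 of the 10 genes (not for Trpm4). Figures used Python 3.11.15 and matplotlib 3.10.9.

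The channel genes and the other lists were chosen with earlier results of these data known. Named were the channel genes, in each other list the 2 most abundant genes and the 2 with the smallest p, the 5 genes nearest to Piezo1 in profile, its 3 nearest neighbours, Csf1r and Tdtomato. Genes named beyond this rule were chosen after their values were seen, among them Zfp469, Ctu2 as the overlapping gene, Gm28035 and Tsc2.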

Additional observations from a re-analysis of the deposited data

How the results depend on the processing

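Piezo1 was called under all 15 alternatives, with log2 fold changes of −2.87 to −2.71 and adjusted p of at most 0.0198. Of the other 9 channel genes, 0 were called in any alternative (smallest adjusted p 0.460). The 72 other list genes and the 16 neighbours of Piezo1 also had 0 calls in each, though DESeq2 gave 12 of the 72 and 1 of the 16 no adjusted p. Of 134 values of the 9 genes, 129 kept their direction and 5 changed it, all with a library left out. With a library left out, log2 fold changes ran from −0.062 to 0.055 for Trpv2, −0.076 to 0.14 for Tmem63b, −0.049 to 0.21 for Panx1 and −0.24 to 0.082 for Pkd1. The number of all genes called was 19, against 4 without the intensity trend, 63 with DESeq2, and 7 to 76 with a library left out (76 without knockout 1, 61 without knockout 2, 7 without control 1, 8 without control 2). The cause was not tested. The labels number replicates 1 and 2 in each genotype, and deviations of same-numbered libraries had a correlation of −0.0016 across genes. This value weighs all genes equally, so it cannot exclude pairing or a batch that acts on part of them. With the replicate block, 89 genes were called, and Piezo1 kept a log2 fold change of −2.79. With the longest transcript as length, Piezo1 in controls was at 49.6 CPM per kb. Reads in Trpm4 and in relatives such as Trpv4 and Panx3 were few, which limits those values.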
